A study of Mus musculus with 4 samples.

Results

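The array labelled NSCL61 was set against the array labelled NSC-Ceacam1L, 1 array each, a comparison of a tumour line with neural stem cells that carry Ceacam1L. Genes entered when the scanner software marked their probe as well above background on at least 1 of these 2 arrays, which held for 15725 of 22396 genes with a probe (70.2%). Both cultures were mouse cells without p53 (p53-/-), labelled as brain of E14.5 embryos, transfected with vectors, selected with hygromycin for 1 week and kept in serum-free neural stem cell medium. NSC-Ceacam1L cells carried a vector for the long form of Ceacam1, and NSCL61 is known as a glioma-initiating line derived from p53-null neural stem cells with an activated Ras. The other 2 arrays of the series, NSC (the stem cells with no vector gene in their label) and NSCL61-Ceacam1sh (the line with a short hairpin RNA against Ceacam1), are given beside many of the values. The labels do not say whether the NSC and NSCL61 cultures received an empty vector.

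Each culture was hybridised once, so every difference below compares 2 arrays and has no replicate check, and no p-value is given. All 4 arrays shared 1 slide with 1 position per culture, so position and culture cannot be told apart. A level is the log2 of the processed signal over its array's 75th percentile, and levels are listed in the order NSC, NSC-Ceacam1L, NSCL61 and NSCL61-Ceacam1sh. A difference is the NSCL61 level minus the NSC-Ceacam1L level in log2 units, and the value after ± is the scanner software's error for the spots, which covers no variation between cultures. A gene was called higher or lower from a 2-fold difference (1.0 in log2), with its probe well above background on the brighter array. For a gene seen on 1 of the 2 arrays, "at least" sets the bright array against the higher of the dim signal and the dim array's lowest signal well above background. The call itself uses the measured difference, so a bound can be under 2-fold: it was 2-fold or more for 404 of the 584 higher genes seen on NSCL61 only and for 662 of the 968 lower genes seen on NSC-Ceacam1L only. The lowest level well above background was -4.85 on NSC-Ceacam1L and -4.65 on NSCL61, so levels around or under these are background and have no order. The 75th percentiles were 571 on NSC-Ceacam1L and 439 on NSCL61, and the spots of a probe printed repeatedly varied by a median SD of 0.0602 and 0.0621.

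Ceacam1 is a cell adhesion molecule of the immunoglobulin superfamily, and its long form carries a cytoplasmic tail with tyrosine motifs that bind phosphatases and Src-family kinases. Neural stem cells of the embryonic forebrain divide and can mature into neurons, astrocytes and oligodendrocytes. Astrocyte maturation is driven by cytokines of the interleukin-6 family through STAT3 and by bone morphogenetic proteins. Activated Ras signals through RAF, MEK and ERK kinases, and ERK induces its own inhibitors, the Sprouty proteins and the DUSP phosphatases. Ceacam1 itself was not analysed here, since no probe was named for it. The probe of its close relative Ceacam2 was not well above background on either array (-5.01 on NSC-Ceacam1L and -4.997 on NSCL61), so the label could not be checked by its gene.

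The genes that differed most between NSCL61 and NSC-Ceacam1L included genes of the extracellular matrix, of positional identity and of lipid metabolism. NSCL61 had high signals of type VI collagen, S100a4 and Hoxa genes, and it lacked signals that were bright in the stem cells, such as those of the basement membrane genes Nid1 and Lama1. Among genes past 2-fold, most of those tied to hypoxia and to STAT3, and Gfap, were higher on NSCL61, while all or most of those of cell division, antigen presentation, interferon response, oligodendrocytes and neurotransmitter receptors were lower. Of 15725 genes, 1787 (11.4%) were higher on NSCL61 and 2167 (13.8%) were lower. Of the higher genes, 1203 were seen on both arrays and 584 on NSCL61 only, and of the lower genes 1199 and 968 on NSC-Ceacam1L only. The median difference over all evaluated genes was 0.15. Another scaling moved that median to 0.027 (median), 0.022 (quantile), -0.083 (cyclic loess) or -0.46 (spike-in controls), and 45.2% of calls were higher against 33.7% (cyclic loess) and 18.8% (spike-in). All 2167 lower calls and 878 of the 1787 higher calls held under each of these 4 scalings. Median and spike-in scaling lower every difference by the same amount, so they could not undo a lower call. Of 574 called genes with several probes above background on both arrays, 46 (8.01%) had probes that pointed both ways.

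**Figure D1:**
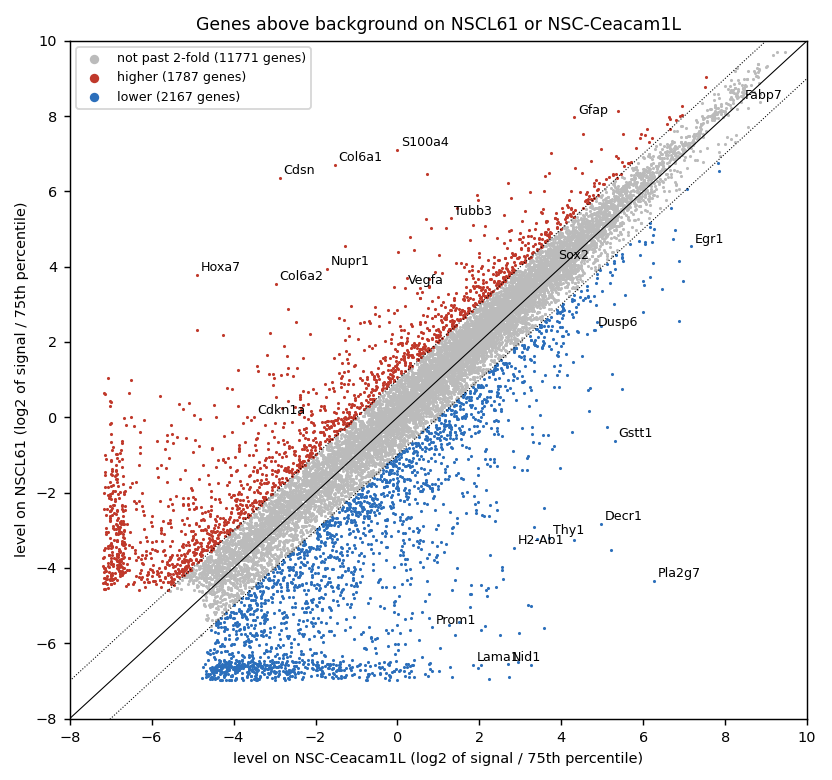
Level of each of the 15725 evaluated genes on the NSC-Ceacam1L array (x axis) and the NSCL61 array (y axis), both as log2 of signal over the array's 75th percentile. Red points are the 1787 genes called higher on NSCL61 and blue points the 2167 called lower. Dotted lines mark 2-fold, and the dense bands at the left and bottom edges are genes not above background on 1 of the arrays.

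Among genes seen on both arrays, the largest positive difference was that of Cdsn, which encodes corneodesmosin, an adhesion protein of the outer epidermis. Cdsn was at -5.10, -2.87, 6.36 and -2.93, a difference of 9.24 ± 0.22 (probe at chromosome 17, 35693799 to 35693858, plus strand, mm9). It was high on the NSCL61 array and low on the other 3. Col6a1, a chain of type VI collagen, was at -3.14, -1.53, 6.70 and 3.27, a difference of 8.23 ± 0.21 or 300.1-fold (chromosome 10, 76171538 to 76171597, minus strand). Its partner chain Col6a2, the neighbouring gene, differed by 6.50 ± 0.22 by the probe used and by 1.47 by its other probe. Both collagen genes were high on NSCL61, intermediate on NSCL61-Ceacam1sh and low on the stem cell arrays. S100a4, a calcium-binding protein of motile and mesenchymal cells, was at -2.05, -0.0079, 7.10 and 8.55, a difference of 7.11 ± 0.20, so both NSCL61 cultures stood above both stem cell cultures. The other leading genes were the G-protein regulator Rgs8 (6.43), the smooth muscle calponin Cnn1 (5.84), the neurosecretory protein gene Vgf (5.72), the stress-induced Nupr1 (5.66), the membrane protein Emp3 (5.36), Elobl (5.15) and annexin Anxa1 (5.001).

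At the other end, Pla2g7, the secreted platelet-activating factor acetylhydrolase, was at 3.95, 6.27, -4.34 and 4.24, a difference of -10.62 ± 0.34 (chromosome 17, 43749032 to 43749091, plus strand), and its second probe differed by -7.34. Pla2g7 was low on the NSCL61 array alone. Decr1, a mitochondrial reductase of unsaturated fatty acid oxidation, was at 4.58, 4.97, -2.83 and -1.31 and differed by -7.79 ± 0.23. The ketone body enzyme Bdh1 differed by -7.56 ± 0.23, the cell surface glycoprotein Thy1 by -6.91 ± 0.24 and the activity-regulated neuronal gene Arc by -6.87 ± 0.34. These were bright on both stem cell arrays and dim on NSCL61, and Thy1 was dimmer still on NSCL61-Ceacam1sh (-6.73). Smim20 (-6.91), Rprm (-6.64), the secretory chaperone Scg5 (-6.61), the heme-binding Hebp1 (-6.52), the MHC class II chain H2-Ab1 (-6.31) and the X-linked Tceal3 (-6.24) and Tceal6 (-5.97) completed the 12 largest negative differences. Differences of 10-fold or more among genes seen on both arrays numbered 64 higher and 126 lower.

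Some genes were seen on 1 of the 2 arrays only. Hoxa7, a homeobox gene of axial position, was at least 399-fold higher on NSCL61, the keratinocyte envelope gene Sprr1a at least 145-fold, Hoxa3 at least 59.2-fold, the interferon-inducible Ifi204 at least 57.1-fold and the forkhead factor Foxa1 at least 45.0-fold. Seen on NSC-Ceacam1L and not on NSCL61 were the progestin receptor family gene Paqr7 (at least 298-fold lower), the mitochondrial Chchd10 (240.0-fold), the collagen Col26a1 (239-fold), Prxl2b (229-fold), the lysosomal protease Ctsh (197-fold) and Gprasp2 (192-fold). All 6 of the latter were also seen on the NSC array. On NSCL61-Ceacam1sh 4 of them (Paqr7, Chchd10, Ctsh and Gprasp2) were again seen, with Chchd10 at 0.77, 3.26, -5.02 and 2.09 and Ctsh at 2.03, 2.98, -5.72 and 2.70, whereas Col26a1 and Prxl2b were not.

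**Figure D2:**
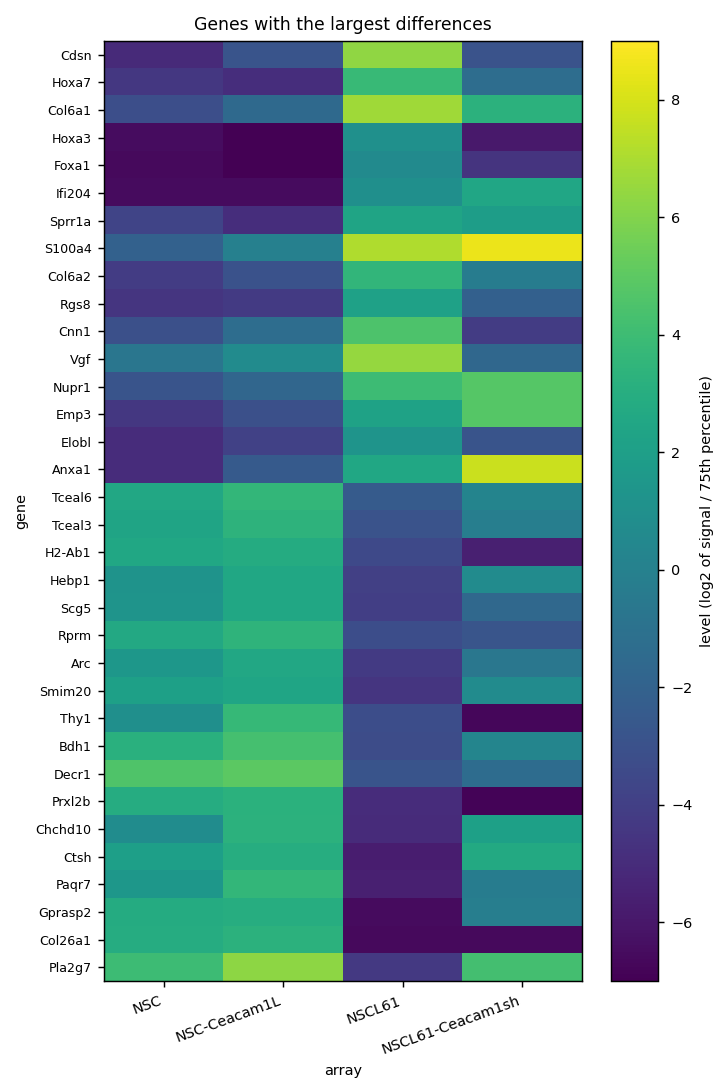
Levels (colour, log2 of signal over the array's 75th percentile) on the 4 arrays for 34 of the genes with the largest differences between NSCL61 and NSC-Ceacam1L, ordered by difference. The 16 upper genes are brighter on NSCL61 than on both stem cell arrays, the 18 lower genes are dimmer, and on NSCL61-Ceacam1sh some genes follow NSCL61 and others do not.

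Promoters rich in CpG were a smaller share among genes seen on 1 array and at least 10-fold apart than among genes seen on both. Promoters here are the RefSeq windows (GRCm38.p6) of 300 bases, 250 before and 50 after each start, which were at hand for 12324 of the evaluated genes. Of genes at least 10-fold lower and seen on NSC-Ceacam1L only (170, of which 133 had a promoter), 36.5% of 181 promoters had a ratio of observed to expected CpG above 0.6. Of genes at least 10-fold higher and seen on NSCL61 only (71, of which 53 had one), 23.4% of 64 promoters did. The share was 67.9% of 11499 promoters of genes seen on both arrays and under 2-fold, 51.6% for genes seen on both and lower, 58.5% for those higher, and 13.3% for genes on the array seen on neither. CpG-rich promoters are typical of genes active in most tissues, and these shares are descriptions with no test.

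Genes of the 50 lists described below (1453 genes of pathways, cell types and complexes) are counted as higher, lower or neither among the members well above background on at least 1 array. A list's median is that of its members' differences, to be read beside the 0.15 of all genes. Its counts are to be read beside the 11.4% of all genes that were higher and the 13.8% that were lower. The Ceacam and Psg genes had 2 members above background, neither past 2-fold, and the 5 sex-linked genes seen were also within 2-fold.

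**Figure D3:**
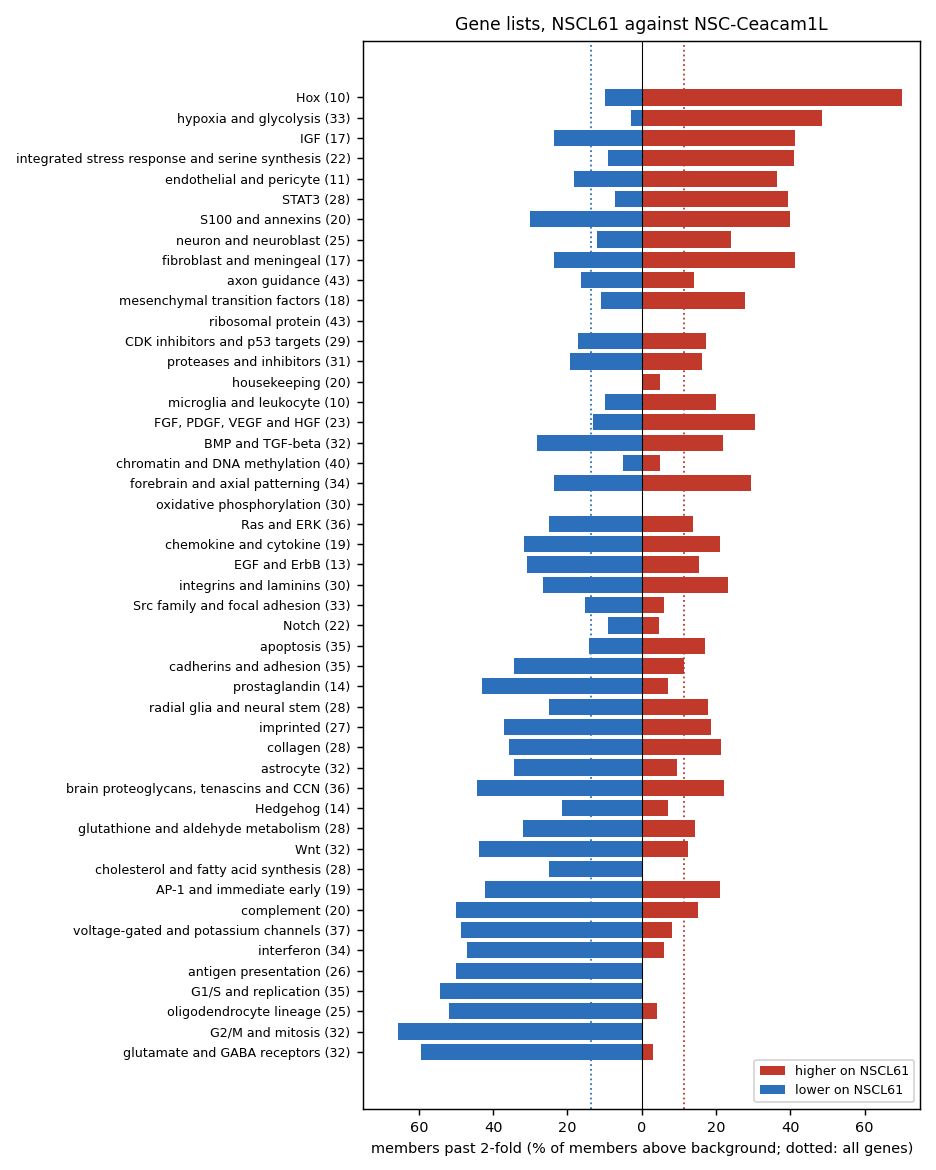
Share of each list's members above background (number in brackets) that were called higher (red, right) or lower (blue, left) on NSCL61 than on NSC-Ceacam1L, with dotted lines at the shares over all genes (11.4% and 13.8%). Lists with 10 or more members above background are shown, ordered by median difference, from the Hox genes (4.53) to the glutamate and GABA receptors (-1.61). When bounds stand in for genes on 1 array, these medians were 2.98 and -1.29.

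Astrocyte genes were split: the filament gene Gfap was higher on NSCL61, whereas most called members were lower. Of 32 astrocyte genes seen, 3 were higher and 11 lower, with a median of -0.35. Gfap was at -3.01, 4.32, 7.97 and -6.75, a difference of 3.65 ± 0.20 or 12.6-fold (chromosome 11, 102751813 to 102751872, minus strand). Gfap was low on NSC, higher on NSC-Ceacam1L and highest on NSCL61, and was not seen on NSCL61-Ceacam1sh. In these bulk samples, fewer cells of a type cannot be told apart from less RNA per cell. Itih3, a hyaluronan-binding protein gene, was at -0.56, 1.78, 4.70 and -6.69 and the neurotensin receptor Ntsr2 at 0.84, 2.17, 3.59 and -0.25, both highest on NSCL61. The gap junction gene Gjb6 was seen on NSC-Ceacam1L only and was at least 24.9-fold lower on NSCL61. The folate enzyme Aldh1l1 was at 5.56, 6.16, 3.72 and -2.59 (-2.44 ± 0.20) and the secreted chaperone Clu at 2.01, 6.73, 4.73 and 3.92 (-1.999 ± 0.20). Both were highest on NSC-Ceacam1L, and for Clu the NSCL61 level lay above that of NSC. Ndrg2 differed by -2.14 ± 0.20. Against NSC, the list's median was 1.28 for NSC-Ceacam1L and 0.86 for NSCL61; both of these values share the NSC array.

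Genes that mark neural stem cells and radial glia differed in both directions. Of 28 seen, 5 were higher and 7 lower (median -0.26). The hyaluronan receptor Cd44 was at 0.47, 0.76, 3.50 and 4.62, with both NSCL61 cultures above both stem cell cultures (2.73 ± 0.20). The intermediate filament genes Nes (1.34 ± 0.20) and Vim (1.26 ± 0.20) and the matrix protein Tnc (1.53 ± 0.21) were also higher. Of these 4 calls, Cd44 alone stayed past 2-fold under spike-in scaling. The transcription factor Sox2 (0.29 ± 0.20) and the fatty acid binding protein gene Fabp7 (-0.028 ± 0.20) did not pass 2-fold. Prom1, which encodes the stem cell surface protein CD133, was at 0.0090, 0.85, -5.58 and -2.28 and was at least 45.1-fold lower on NSCL61, where it was not seen. Hopx (-2.32 ± 0.20), Id1 (-1.43 ± 0.20), Lhx2 (-1.29 ± 0.20) and Sall3 (-1.25 ± 0.21) were lower as well.

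Oligodendrocyte lineage genes were mostly lower: of 25 seen, 1 was higher and 13 lower, with a median of -1.03. Gpr17, a receptor of oligodendrocyte precursors, was at 5.28, 6.45, 3.41 and -6.74, a difference of -3.04 ± 0.20. The lineage factors Sox10 (1.13, 1.27, -0.67 and -2.58) and Nkx2-2 (0.62, 0.83, -1.96 and -2.25) differed by -1.94 ± 0.21 and -2.80 ± 0.21. Both factors were similar on the 2 stem cell arrays and lower on both NSCL61 arrays. The proteoglycan gene Cspg4, also known as NG2, differed by -2.36 ± 0.21 and the connexin Gjc3 by -3.69 ± 0.21. Olig2 (-0.75 ± 0.20) and the receptor Pdgfra (-0.89 ± 0.20) did not pass 2-fold, and Nkx6-2 was the single member called higher (1.69 ± 0.22).

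Neuronal genes differed in both directions. Of 25 seen, 6 were higher and 3 lower, beside 11.4% and 13.8% of all genes, with a median of 0.35. Under spike-in scaling 3 were higher and 5 lower, with a median of -0.26. Tubb3, the neuronal beta-tubulin, was at 1.05, 1.30, 5.29 and 0.64, a difference of 3.99 ± 0.20, and was high on NSCL61 alone. The ganglionic eminence factor Sp9, seen on NSCL61 only, was at least 6.50-fold higher, and Elavl3 differed by 1.13 ± 0.20. Stmn3 was lower (-2.28 ± 0.20), the splicing factor Rbfox3, known as NeuN, was at least 6.83-fold lower, and Dcx did not pass 2-fold (0.35 ± 0.24). Receptor and channel genes were mainly lower on NSCL61. Of 32 glutamate and GABA receptor genes seen, 1 was higher and 19 lower (median -1.61), and of 37 channel genes, 3 were higher and 18 lower (median -0.96). Over genes seen on both arrays, 9 of 18 receptor genes and 14 of 32 channel genes were lower, with medians of -0.77 and -0.73. When bounds stand in for genes on 1 array, the medians were -1.29 and -0.81, and under normexp background correction 10 and 13 were lower, with medians of -0.42 and -0.39. The GABA-A subunit Gabrg1 was at 2.06, 2.41, -2.24 and -6.68 (-4.64 ± 0.21). Gabrb1 was at least 21.5-fold lower and was seen on NSC-Ceacam1L alone of the 4 arrays (-6.14, -0.22, -6.55 and -6.56). Gabra3, seen on both stem cell arrays, was at least 10.6-fold lower, and the GABA-B receptor Gabbr1 differed by -2.88 ± 0.20. The potassium channels Kcnk1 (-4.65 ± 0.22) and Kcnn2 (-3.62 ± 0.21) were lower, while the calcium channel subunit Cacng5 was higher (2.68 ± 0.20).

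Markers of cells outside the neural lineage were checked in full. Of 11 endothelial and pericyte genes seen, 4 were higher and 2 lower, of 10 microglial and leukocyte genes 2 and 1, and of 17 fibroblast and meningeal genes 7 and 4. Their medians were 0.56, 0.22 and 0.34, and each was below 0 under spike-in scaling (-0.047, -0.39 and -0.27). The VEGF receptor Flt1 was at 0.85, -0.82, 2.52 and 1.88 (3.34 ± 0.20) and the lysosomal Cd68 differed by 2.36 ± 0.21, whereas Cdh5, which defines endothelium, was at least 2.41-fold higher from a level of -3.58 and Cx3cr1 at least 4.06-fold from -2.83, both near the background. The collagen gene of fibroblasts, Col1a1, was among the 4 lower members (-1.14 ± 0.37). It was at -3.37 on NSC-Ceacam1L and -4.51 on NSCL61, also near the background. The 7 higher members included Msln (at least 7.56-fold), Ogn (at least 5.39-fold) and S100a4. Of the endothelial list, 8 of 22 genes were above background on NSC-Ceacam1L and 10 on NSCL61, of the microglial list 8 and 9 of 21, and of the fibroblast list 11 and 15 of 24. The summed signal of these lists, as a multiple of the 75th percentile, was 38.7 and 39.2, 32.6 and 33.6, and 25.03 and 148 in the same order, and S100a4 made up most of the last value. Tek, Tie1 and Cldn5 of endothelium, Ptprc, Aif1 and Tyrobp of leukocytes and microglia, and Dcn, Lum and Postn of fibroblasts were not above background on either array. The part of other cells in the differences was not tested.

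Hypoxia and glycolysis genes past 2-fold were, with 1 exception, higher on NSCL61 than on NSC-Ceacam1L. Cells short of oxygen stabilise the transcription factor HIF-1, which turns on glucose transport, glycolysis and angiogenic genes through sites with the core ACGTG. Of 33 genes seen, 16 were higher and 1 lower, with a median of 1.00 (0.39 under spike-in scaling, with 11 higher). Car9, a carbonic anhydrase that is a standard HIF-1 target, was at -4.09, -5.88, -0.62 and -1.84 and at least 18.8-fold higher on NSCL61. The collagen prolyl hydroxylase P4ha2 was at -0.036, -2.70, 1.62 and 2.22 (4.32 ± 0.22), the ankyrin repeat gene Ankrd37 at 1.69, -2.68, 0.43 and -0.060 (3.11 ± 0.21) and the angiogenic factor Vegfa at 4.10, 0.18, 3.44 and 3.16 (3.27 ± 0.20). For Ankrd37 and Vegfa the NSC-Ceacam1L array was the low one of the 4, and NSC stood above NSCL61. For Car9 and P4ha2, NSCL61 was also above NSC. Adm, the vasodilator adrenomedullin, was at 2.30, 0.78, 3.67 and -1.27 (2.89 ± 0.20). Slc16a3, the lactate exporter, was the 1 member that was lower, at 4.74, -0.96, -3.81 and -3.26 (-2.85 ± 0.26): it was bright on NSC alone. Against NSC the list's median was -1.57 for NSC-Ceacam1L and -0.43 for NSCL61.

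The 150 bases before the start of 3 higher members are shown because each holds the HIF core ACGTG, in capitals where it matches on either strand. They come from RefSeq promoters on GRCm38.p6: Car9 at chr4:43506876-43507025 (plus strand), P4ha2 at chr11:54100774-54100923 (plus strand) and Ankrd37 at chr8:45999851-46000000 (minus strand). Each is written 5′ to 3′ on the gene's strand.
Car9: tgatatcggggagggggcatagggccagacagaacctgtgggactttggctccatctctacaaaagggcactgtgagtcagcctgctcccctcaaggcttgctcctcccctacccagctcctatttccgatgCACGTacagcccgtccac
P4ha2: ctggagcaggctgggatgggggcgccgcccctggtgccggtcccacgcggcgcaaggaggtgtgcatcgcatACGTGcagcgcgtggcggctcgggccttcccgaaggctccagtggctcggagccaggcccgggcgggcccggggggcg
Ankrd37: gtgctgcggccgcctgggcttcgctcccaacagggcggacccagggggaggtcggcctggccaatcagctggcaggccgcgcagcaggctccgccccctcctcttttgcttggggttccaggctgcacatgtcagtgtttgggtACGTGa
The matches begin 18, 78 and 6 bases before the start, and that of Car9 is on the opposite strand. Of the 16 higher members, 15 had 20 promoters in the table, and 14 of these promoters, from 12 genes, held ACGTG, as did 9 of 20 promoters of the 15 matched members not past 2-fold. Over all 32851 promoters the share was 19.6%. A match is a description of these letters and was not tested as a binding site.

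Stress genes of the ATF4 branch past 2-fold were also mostly higher, with a median of 0.58 over 22 genes that was -0.023 under spike-in scaling. In all 9 were higher and 2 lower. Nupr1, a small chromatin protein induced by stress, was at -2.81, -1.71, 3.95 and 4.80, and the pseudokinase Trib3 at -1.78, -1.42, 2.64 and 1.26 (4.06 ± 0.21). Both were high on the 2 NSCL61 arrays. The factor Ddit3, also known as CHOP, differed by 2.76 ± 0.20, the glutathione-degrading Chac1 by 2.08 ± 0.20 and the folate enzyme Aldh1l2 by 1.94 ± 0.20. The serine synthesis enzyme Phgdh was lower (-1.34 ± 0.20).

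Every gene of replication and mitosis past 2-fold was lower on NSCL61 than on NSC-Ceacam1L, under the other 4 scalings too. Median and spike-in scaling lower every difference by the same amount, so they could not have added a higher call. Of 35 genes of the G1/S transition and replication, 0 were higher and 19 lower (median -1.03), and of 32 genes of G2 and mitosis, 0 were higher and 21 lower (median -1.09). Thymidine kinase Tk1 was at 3.96, 2.82, -0.91 and 5.99 (-3.73 ± 0.21), cyclin Ccne1 at 3.49, 2.48, 0.36 and 3.96 (-2.12 ± 0.20) and the ribonucleotide reductase subunit Rrm2 at 5.36, 4.12, 2.28 and 5.80 (-1.84 ± 0.20). Of the mitotic genes, cyclin Ccnb2 was at 4.85, 3.95, 0.81 and 4.87 (-3.15 ± 0.20), Plk1 differed by -1.40 ± 0.20 and the proliferation marker Mki67, at 5.24, 4.26, 3.08 and 5.26, by -1.18 ± 0.20. The 4 arrays kept 1 order for Tk1, Rrm2 and Mki67: NSCL61 lowest, then NSC-Ceacam1L, with NSC and NSCL61-Ceacam1sh above. Cyclin Ccnd2 departed from it at 5.49, 4.29, 1.47 and 1.74 (-2.83 ± 0.20), low on both NSCL61 arrays. Against NSC, the medians of the 2 lists were -1.08 and -0.98 for NSC-Ceacam1L and -2.13 and -2.07 for NSCL61.

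Among inhibitors of the cycle and genes known as p53 targets, which can also be induced without p53, 5 were higher and 5 lower of 29. The CDK inhibitor Cdkn1a was at -3.72, -3.50, 0.0026 and 1.02 (3.51 ± 0.25) and the stress gene Gadd45b at -0.30, 0.31, 4.79 and 1.93 (4.48 ± 0.20). Cdkn1a was high on both NSCL61 arrays and low on both stem cell arrays. The death receptor Fas differed by 1.91 ± 0.20. Cdkn2b was lower (-2.76 ± 0.20), and Perp, a desmosomal and apoptotic membrane protein, was at least 13.4-fold lower. Cdkn2a, which encodes p16 and Arf, was at 6.395, 5.85, 6.26 and 1.47 and did not pass 2-fold (0.42 ± 0.20). The probe of Trp53 gave -1.33, -1.61, -1.52 and -0.99, a difference of 0.093 ± 0.21, and does not check the deletion, whose extent the labels do not give.

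Of the genes of Ras and ERK signalling, the Ras genes Hras and Nras did not pass 2-fold: Hras was at 3.46, 2.96, 3.15 and 4.83 (0.19 ± 0.20) and Nras differed by -0.0068 ± 0.20. These probes do not tell a mutant transcript from the normal one. Some inhibitors that ERK induces were lower on NSCL61. The phosphatase Dusp6 was at 5.24, 4.79, 2.32 and 4.25 (-2.47 ± 0.20), and the Sprouty gene Spry1 at 4.20, 3.81, 1.36 and 0.45 (-2.45 ± 0.20), with Spry2 differing by -2.28 ± 0.21 and Spry4 by -2.34 ± 0.23. The other members of these families on the list, 3 Spred genes, Dusp4 and Dusp5, did not pass 2-fold and ran from Spred3 (-0.77) to Spred2 (0.47). The ERK-induced factors Etv4, at 4.41, 3.92, 1.74 and 4.20 (-2.18 ± 0.20), and Etv5 (-1.15 ± 0.20) were lower, as was cyclin Ccnd1 (-1.15 ± 0.20). Spry2, Etv4, Etv5 and the Spred genes are named here after their values were seen. Dusp6 was low on the NSCL61 array alone, and Spry1 was low on both NSCL61 arrays. Egr1, an immediate early factor downstream of ERK, was at 6.26, 7.16, 4.54 and 5.15 (-2.61 ± 0.20). Ier3 was bright on NSCL61-Ceacam1sh and seen on both stem cell arrays, at 1.77, 0.79, -6.67 and 5.66, and was at least 43.4-fold lower on NSCL61. Higher were Phlda1 (2.81 ± 0.20), the Ras relative Rras2 (2.05 ± 0.21), the kinases Map2k1 (1.07 ± 0.20) and Map2k2 (1.05 ± 0.20), and the AP-1 subunit Fosl1 (at least 7.15-fold). The 2 kinases were no longer called under the other 4 scalings. In all, 5 were higher and 9 lower of 36 genes of the list, whose median was 0.0034.

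Immediate early genes, which respond within minutes to growth factors, showed 4 higher and 8 lower of 19 (median -0.78). Beside Egr1 and Ier3, Egr2 (-2.59 ± 0.20), the orphan receptor Nr4a1 (-2.72 ± 0.20) and Ier2 (-1.62 ± 0.20) were lower, and Atf3 (2.24 ± 0.20), Fosl2 (2.85 ± 0.20) and Jund (1.43 ± 0.20) higher. Fosl2 was at -0.10, -0.0020, 2.84 and 3.14, with both NSCL61 arrays above both stem cell arrays. The AP-1 site TGANTCA was in 0 of the 10 promoters of lower members and 0 of the 3 of higher members of this list, against 7.81% of all promoters.

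Ligands and receptors of growth factor pathways moved in both directions. Of 13 EGF and ErbB genes, 2 were higher and 4 lower: the receptor Egfr was at 4.49, 4.57, 3.17 and 0.15 (-1.40 ± 0.20), and the ligands Areg and Nrg1 were at least 4.69 and 2.77-fold lower. The 2 higher members, the ErbB inhibitors Errfi1 (1.11 ± 0.20) and Lrig3 (1.04 ± 0.20), lost their call under the other 4 scalings. Of 23 FGF, PDGF, VEGF and HGF genes, 7 were higher and 3 lower. Beside Vegfa and Flt1, these were the ligand Pdgfa (2.03 ± 0.20), and the receptor Kit (1.85 ± 0.20) with its ligand Kitl (1.88 ± 0.20); Fgf1 was lower (-2.83 ± 0.21). Of 17 genes of insulin-like growth factor signalling, 7 were higher and 4 lower (median 0.63). The ligand Igf2 was at least 8.50-fold higher, the binding protein gene Igfbp5 was at 2.16, 2.71, 6.23 and -1.68 (3.53 ± 0.20) and the adaptor Irs4 at -2.79, -3.01, 1.03 and -2.49 (4.04 ± 0.22; 8.11 by its other probe). Those were high on NSCL61 alone. The binding protein gene Igfbp2 was lower, at 6.16, 5.98, 3.62 and -3.99 (-2.36 ± 0.20), as was Igfbp4 (-3.02 ± 0.29).

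STAT3 pathway genes were higher by count, with 11 higher and 2 lower of 28 and a median of 0.41 that was -0.20 under spike-in scaling (7 higher, 5 lower). Among ligands and receptors, the cytokine gene Lif was at -6.19, -5.68, -0.85 and -1.77 and at least 16.01-fold higher, Cntf was at -0.012, -0.22, 2.86 and -0.81 (3.08 ± 0.20), and the receptor subunit Il6ra at -2.17, -1.21, 2.38 and 3.49 (3.59 ± 0.21). Lif and Il6ra were high on both NSCL61 arrays, and Cntf on NSCL61 alone. The receptors Lifr (-1.27 ± 0.20) and Cntfr (-1.36 ± 0.20) were lower, and the second probe of Cntfr differed by 0.54. Stat3 itself was at 4.72, 4.99, 5.15 and 3.42 (0.17 ± 0.20), and its feedback inhibitor Socs3 at 0.18, 4.92, 4.48 and 3.92 (-0.44 ± 0.20); neither passed 2-fold. Socs3 was low on NSC alone. Of genes known as STAT3 targets, the adhesion molecule Icam1 was at least 9.72-fold higher, and Lcn2, the iron-carrier protein lipocalin, was higher by 2.65 ± 0.21. The STAT motif TTCNNNGAA was in 2 of 9 promoters of the higher members, of Fgl2 and Icam1, in 0 of 8 of the lower members and in 2 of 17 of those not past 2-fold, against 8.30% of all promoters. Of astrocyte genes it was in 2 of 3 promoters of higher members, those of Gfap and Ntsr2, in 1 of 11 of lower members and in 3 of 21 of those not past 2-fold.

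BMP and TGF-beta genes differed in both directions. Of 32 seen, 7 were higher and 9 lower; the median was 0.14 and was below 0 under cyclic loess (-0.058) and spike-in scaling (-0.47). The ligands Bmp7 (3.69, 2.43, -2.45 and -6.88) and Bmp4 (-3.23, 0.050, -3.65 and 1.11) differed by -4.88 ± 0.21 and -3.70 ± 0.28. Bmp7 was low on both NSCL61 arrays, while Bmp4 was low on NSC and NSCL61. Id1, a BMP target that holds back differentiation, was at 2.22, 2.78, 1.35 and 3.99 (-1.43 ± 0.20), and the matricellular gene Ccn2 was lower too, at -4.82, 0.50, -3.04 and 1.77 (-3.54 ± 0.23). On the TGF-beta side, the ligand Tgfb1 was at least 9.30-fold higher, and so was its target Tgfbi, a secreted matrix adapter (at least 29.9-fold). Tgfbi was at -4.13, -4.97, 0.049 and 0.026, high on both NSCL61 arrays.

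Wnt genes were lower more often than higher: 4 were higher and 14 lower of 32 (median -0.54). The secreted Dkk3 was at -1.62, 1.14, -3.59 and -3.20 (-4.73 ± 0.27), lower on both NSCL61 arrays than on NSC-Ceacam1L. The secreted inhibitors Sfrp2 (-4.07 ± 0.28) and Sfrp5 (-3.88 ± 0.34) and the ligand Wnt4 (-2.43 ± 0.22) were lower. The nuclear factor Lef1 (2.99 ± 0.26), the receptor Lgr5 (3.13 ± 0.21) and the ligand Wnt7b (1.69 ± 0.20) were higher. Of 22 Notch genes, 1 was higher and 2 lower, with the regulator Dtx1 at 2.96, 3.29, -0.25 and -6.79 (-3.54 ± 0.20); 19 of 22 did not pass 2-fold. Of 14 Hedgehog genes, 1 was higher and 3 lower: the inhibitor Hhip, itself a target, was at least 18.4-fold lower and the receptor Ptch1 was at 0.92, 1.65, -0.017 and -2.18 (-1.67 ± 0.20).

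Interferon-stimulated genes past 2-fold were mostly lower on NSCL61. These genes respond to interferons through STAT transcription factors at response elements with paired GAAA repeats, and encode antiviral proteins. Of 34 seen, 2 were higher and 16 lower, with a median of -0.96 (-0.62 under normexp, with 13 lower). Oasl2 was at -2.35, -0.096, -4.90 and -2.34 and at least 23.5-fold lower, and Rtp4 was at -0.093, 1.67, -2.53 and 0.81 (-4.20 ± 0.22). The ubiquitin-like Isg15 was at 0.68, 2.04, 0.18 and 3.93 (-1.87 ± 0.20), Ifit1 at -4.12, -1.94, -3.98 and -1.10 (-2.04 ± 0.28), and the antiviral radical enzyme gene Rsad2 was at least 5.48-fold lower. For Isg15, Ifit1 and Rsad2 the NSC level lay below that of NSC-Ceacam1L, and NSCL61 lay near or below NSC. Against NSC the list's median was 1.31 for NSC-Ceacam1L and 0.14 for NSCL61. The exceptions on the list were the guanylate-binding protein Gbp2 (1.52 ± 0.20) and Ifit2 (1.39 ± 0.21), which were higher and did not stay past 2-fold under spike-in scaling. The interferon-inducible Ifi204, which is not on the list, was at least 57.1-fold higher.

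Of Isg15, Ifit1 and Rsad2, the 150 bases before the start are shown because these well-known interferon targets, of which Isg15 and Ifit1 were chosen after their values were seen, hold the interferon motif GAAANNGAA, in capitals on either strand. They lie at chr4:156200819-156200968 (minus strand), chr19:34640739-34640888 (plus strand) and chr12:26456453-26456602 (minus strand) on GRCm38.p6 and are RefSeq sequences written 5′ to 3′ on the gene's strand.
Isg15: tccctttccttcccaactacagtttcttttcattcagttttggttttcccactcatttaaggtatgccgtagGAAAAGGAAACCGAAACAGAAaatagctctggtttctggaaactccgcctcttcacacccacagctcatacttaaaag
Ifit1: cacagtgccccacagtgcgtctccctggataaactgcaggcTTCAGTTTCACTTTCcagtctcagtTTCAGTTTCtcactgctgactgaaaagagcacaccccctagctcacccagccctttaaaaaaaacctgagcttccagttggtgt
Rsad2: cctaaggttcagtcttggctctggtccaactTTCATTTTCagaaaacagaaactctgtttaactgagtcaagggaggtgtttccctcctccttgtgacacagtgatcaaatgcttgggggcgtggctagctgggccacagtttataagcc
Isg15 and Ifit1 hold 3 matches each, which overlap in part, and Rsad2 holds 1. Of the 16 lower members, 12 had 13 promoters in the table, and 9 of these held the motif, as did 6 of 16 promoters of the members not past 2-fold. Over all promoters the share was 8.56%.

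Genes of antigen presentation past 2-fold were all lower: of 26 seen, 0 were higher and 13 lower, and 13 did not pass 2-fold (median -0.98). Over the 19 seen on both arrays, 7 were lower and the median was -0.39, and normexp background correction gave 10 lower and a median of -0.65. The immunoproteasome subunits Psmb8 (-3.47, 0.072, -6.72 and -3.13) and Psmb9 (-1.85, -0.28, -4.51 and -3.98) were at least 26.3 and 18.8-fold lower. The peptide transporter gene Tap2, their neighbour in the MHC, was at 0.50, 2.45, -0.45 and 1.504 (-2.90 ± 0.20). All 3 were highest on NSC-Ceacam1L. The class II chain H2-Ab1 was at 2.54, 2.84, -3.47 and -5.57, bright on both stem cell arrays and dim on both NSCL61 arrays. The class I regulator Nlrc5 was at least 7.11-fold lower. The motif GAAANNGAA was in 1 of 10 promoters of the lower members. Of 20 complement genes, 3 were higher and 10 lower (median -0.92, and -0.69 when bounds replace the unmeasured side). Lower calls fell to 4 of 11 over genes seen on both arrays (median -0.19) and to 4 under normexp (-0.25). C2 was at 0.71, 1.91, -2.46 and -5.95 (-4.37 ± 0.22) and the protease Masp1 was at least 14.4-fold lower, while C3 was higher (1.42 ± 0.21). Of 19 chemokine and cytokine genes, 4 were higher and 6 lower. Ccl2, which attracts monocytes, was at 0.33, -1.26, 1.77 and 6.58 (3.02 ± 0.21), its neighbour Ccl7 was at least 27.0-fold higher and Il11 differed by 2.54 ± 0.25; all 3 were higher still on NSCL61-Ceacam1sh.

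**Figure D4:**
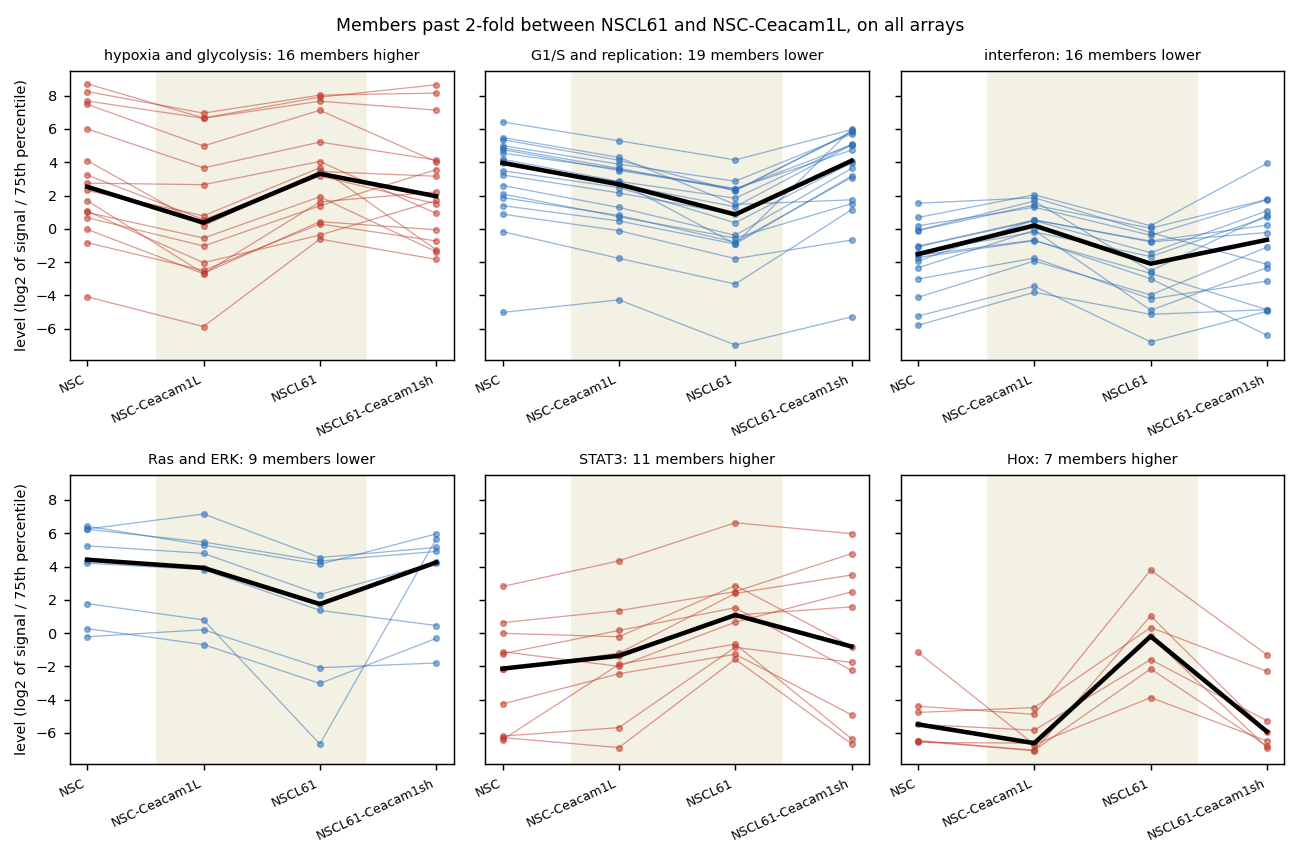
Levels (log2 of signal over the 75th percentile) on the 4 arrays for the members past 2-fold between NSCL61 and NSC-Ceacam1L (shaded) in 6 lists; thin lines join the values of 1 gene and the black line is their median. On NSC the median lies above that of NSC-Ceacam1L for hypoxia and replication members and below it for interferon members, and the Hox median is high on NSCL61 only.

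Matrix and adhesion genes differed in both directions. Of 28 collagen genes, 6 were higher and 10 lower (median -0.34, and -0.077 over those seen on both arrays). Beside the type VI chains, the anchoring collagen Col7a1 was higher (2.18 ± 0.21). Col4a5, a basement membrane chain, was at 1.10, 1.79, -4.71 and 0.49 and at least 86.7-fold lower, and was dim on NSCL61 alone. Of 30 integrin, laminin and nidogen genes, 7 were higher and 8 lower (median -0.037), but of the 23 seen on both arrays 7 were higher and 1 lower (median 0.66), since 7 of the lower genes were not above background on NSCL61. Nid1, which links laminin to collagen IV, was at 0.24, 2.71, -6.56 and 3.37 and at least 164-fold lower (chromosome 13, 13604435 to 13604494, plus strand), and laminin Lama1 was at 1.56, 1.85, -6.57 and -6.54 and at least 90.1-fold lower. Nid1 was bright on NSCL61-Ceacam1sh, whereas Lama1 was not seen there. The integrins Itga4 (2.53 ± 0.22) and Itga9 (1.95 ± 0.22) were higher and Itgb3 at least 15.7-fold lower.

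Of 36 proteoglycan, tenascin, fibulin and CCN genes, 8 were higher and 16 lower. Fibulin Fbln2 was at 6.88, 5.48, 0.76 and 5.04 (-4.72 ± 0.20) and Fbln5 at -2.64, 0.23, -3.76 and 2.09 (-3.99 ± 0.29). The glypican Gpc3 was at least 9.47-fold lower and thrombospondin Thbs1 at least 9.28-fold. Osteopontin, Spp1, was at -4.62, -6.30, -0.39 and 6.06 and at least 22.0-fold higher, and fibronectin, Fn1, was at 1.76, 2.15, 5.08 and 6.10 (2.93 ± 0.20). Both were high on both NSCL61 arrays. Of 31 proteases and inhibitors, 5 were higher (16.1%) and 6 lower (19.4%), beside 11.4% and 13.8% of all genes. The lysosomal protease Ctsc was at least 98.2-fold lower and the metalloprotease Mmp19 at least 10.9-fold higher. The inhibitor Timp3 was at 3.60, 4.53, 7.52 and 3.97 (2.99 ± 0.20). Of 20 S100 and annexin genes, 8 were higher and 6 lower, with a median of 0.38 that was -0.23 under spike-in scaling and 0.96 over genes seen on both arrays. Beside S100a4, Anxa1 (5.001 ± 0.22), S100a3 (4.68 ± 0.22) and Anxa2 (3.27 ± 0.20) were higher, while Anxa4 and S100a1 were at least 44.8 and 86.0-fold lower.

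Of 35 cadherin and adhesion genes, 4 were higher and 12 lower: the protocadherin Pcdh17 was at 2.95, 3.15, -1.08 and 0.27 (-4.23 ± 0.21) and the adhesion molecule Chl1 at 2.33, 2.56, -0.49 and -6.62 (-3.05 ± 0.21), both lower on each NSCL61 array than on the stem cell arrays. Pcdh15 was higher (2.88 ± 0.20). Of 33 genes of Src-family kinases and focal adhesions, which the Ceacam1 tail can bind or feed into, 2 were higher (6.06%) and 5 lower (15.2%). Over all genes these shares were 11.4% and 13.8%. The list's median was -0.043, and 0.086 over genes seen on both arrays. The kinase Lyn differed by -2.92 ± 0.33 and Lck by -1.15 ± 0.22, the kindlin Fermt1, seen on NSC-Ceacam1L alone of the 4 arrays (-6.41, -0.44, -6.79 and -6.75), was at least 18.5-fold lower, and the adapter Bcar1 was higher (1.47 ± 0.20). Of 43 axon guidance genes, 6 were higher and 7 lower; Sema3e was at least 17.04-fold higher, Sema7a differed by 2.64 ± 0.21 and Ephb6 by -2.53 ± 0.21.

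Hox genes order the body axis and are silent in forebrain cells. Of 10 Hox genes seen, 7 were higher and 1 lower, with a median of 4.53. Of the 10, 7 were seen on 1 of the 2 arrays only, and with these at their bound the median was 2.98 (1.65 under normexp, with 6 higher). Hoxa7 was at -4.40, -4.89, 3.79 and -1.31 (chromosome 6, 52165626 to 52165685, minus strand), Hoxa3 at -6.50, -7.08, 1.04 and -5.93 and Hoxa5 at -6.57, -6.62, -0.19 and -6.88 (at least 25.3-fold). Hoxa4 was at -5.49, -5.84, -1.59 and -5.27 and at least 9.60-fold higher. These members of the Hoxa cluster on chromosome 6 were high on the NSCL61 array and low or not seen on the other 3. The bHLH factor Twist2 was at -6.57, -7.14, 0.61 and 4.64 and at least 44.2-fold higher, and Twist1 at -5.66, -6.73, -0.62 and 1.29 and at least 18.8-fold, both high on both NSCL61 arrays. Snai1 was at least 1.22-fold lower, and of 18 mesenchymal factors 5 were higher and 2 lower (median 0.32, and -0.29 under spike-in scaling). Of 34 patterning genes, 10 were higher and 8 lower. The eye and forebrain factor Six3 was at 0.28, 0.49, 3.31 and -4.91 (2.83 ± 0.20) and the midbrain factor En2 differed by 2.04 ± 0.20, while the ganglionic eminence factor Gsx2 was at least 7.82-fold and Gbx2 at least 10.8-fold lower.

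Imprinted genes, expressed from 1 parental copy, were split: 5 were higher and 10 lower of 27. H19 was at 1.26, 0.69, 5.26 and -4.78 (4.57 ± 0.20) and its neighbour Igf2 at -6.15, -6.71, -1.77 and -6.52, both high on NSCL61 alone. Nnat was at 5.09, 5.99, 2.80 and -6.71 (-3.19 ± 0.20), Peg3 differed by -1.51 ± 0.21 and Cdkn1c by -1.69 ± 0.20. Xist, which coats the inactive X, was at 1.85, 1.26, 0.42 and -4.05 and did not pass 2-fold (-0.84 ± 0.20). Of 40 chromatin and DNA methylation genes, 36 did not pass 2-fold. Smarca1 was at -0.46, 0.55, -3.27 and -4.34 (-3.82 ± 0.23) and Uhrf1, a maintenance methylation factor that follows the cell cycle, differed by -1.01 ± 0.20, while Chd5 (1.07 ± 0.22) and Dnmt3l (at least 2.94-fold) were higher.

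Metabolic genes outside glycolysis were mostly lower or within 2-fold. Of 28 genes of cholesterol and fatty acid synthesis and efflux, 0 were higher and 7 lower (median -0.60): the efflux pump Abcg1 was at -0.48, 1.44, -4.00 and -6.86 (-5.45 ± 0.28), and the synthesis enzymes Dhcr7 (-1.71 ± 0.20) and Fasn (-1.26 ± 0.20) were lower. Of 28 genes of glutathione and aldehyde metabolism, 4 were higher and 9 lower. The glutathione transferase Gstk1 was at 2.16, 2.15, -5.55 and -1.51 and at least 111-fold lower, Gpx3 was at least 22.0-fold and the quinone reductase Nqo1 at least 12.5-fold lower. Gstt1 differed by -5.92 ± 0.20 by the probe used and by -0.026 by its other probe, so its probes disagreed. Aldh1a3 was higher (2.30 ± 0.22). Of 14 prostaglandin and phospholipase genes, 1 was higher and 6 lower, with the phospholipase Pla2g4a at least 66.0-fold lower and the cyclooxygenase Ptgs2 at least 6.54-fold; Ptgs2 was at -6.31, -1.94, -5.32 and 5.81, bright on NSCL61-Ceacam1sh. None of the 30 oxidative phosphorylation genes and none of the 43 ribosomal protein genes passed 2-fold; their medians were 0.014 and 0.28.

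Of 35 apoptosis genes, 6 were higher (17.1%) and 5 lower (14.3%), beside 11.4% and 13.8% of all genes. The initiator caspase Casp8 was at -2.26, -1.39, -6.50 and 2.19 and at least 9.55-fold lower, Bcl2 differed by -1.91 ± 0.21, and the BH3-only genes Hrk (2.92 ± 0.27) and Bcl2l11 (2.20 ± 0.25) were higher. Casp8 was seen on NSC, NSC-Ceacam1L and NSCL61-Ceacam1sh and not on NSCL61. Of 20 housekeeping genes, Eef2 alone passed 2-fold (1.10 ± 0.20), not so under the other 4 scalings, and the list's median was 0.25, below 0 under quantile (-0.027), cyclic loess (-0.051) and spike-in scaling (-0.36).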

How the data were processed

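Cy3-labelled cRNA from 4 cultures was hybridised to 1-colour Agilent mouse arrays (design 028005, protocol GE1_107_Sep09). The authors deposited scanner output, in which the processed signal is a background-corrected intensity, made with Agilent Feature Extraction 10.7.3.1 per the file headers and 9.1 per the submitters' processing notes. A deposited table of log2 values matched these levels (slope 1.0 over 26928 probes, each gene's centring unknown; column medians 0.25, -0.20, 0.00 and 0.03) and served as an alternative. Control spots and outlier spots (143 to 187 per array) were left out, spots of a probe averaged, and signals divided by each array's 75th percentile before log2. Probe coordinates are on mm9. Of 55681 probes, 27318 were named by accession through RefSeq, 3527 by symbol, 553 by an older symbol and 80 by the file's own name, and 24203 stayed unnamed. Where probes shared a gene, it was represented by whichever was brightest on average across the 4 arrays. No probe was saturated.

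Members, lists and key genes were chosen with earlier results of these data known. Named in the text are the 12 largest differences each way among genes seen on both arrays, the 6 largest bounds each way, up to 5 members of each list and direction, and fixed key genes; clone and model names were skipped, and some genes under this rule are not reported here. With 1 array per group no test was possible, and precision is limited by how few arrays there are. Alternatives were other scalings (median, quantile, cyclic loess, 8 spike-in probes), normexp with offset 50 (limma 3.58.1, R 4.3.3), other filters on dim probes, the mean over probes and folds of 1.5 and 3. Python 3.11.15 with numpy 2.4.6 and pandas 2.3.3 did the rest.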

Additional observations from a re-analysis of the deposited data

How the results depend on the processing

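No paired analysis was possible because each group had 1 array, and no replicate could be left out. The counts of genes called, 1787 higher and 2167 lower on NSCL61, stayed within 1.5 times under median, quantile and cyclic loess scaling, the authors' deposited table, the mean over probes and with no filter on dim probes (2446 and 2522). Spike-in scaling gave 878 higher and 3790 lower, normexp background correction 1087 and 1213, and genes above background on both arrays 1203 and 1199. Calls from 1.5-fold numbered 3612 higher and 3091 lower, and from 3-fold 897 and 1510. Under normexp 1087 of the higher and 1206 of the lower calls were kept. No named gene past 2-fold changed direction under any alternative. Named genes within 2-fold were left out of that check, and a shift of scaling can change their sign. Sign changes are given here only for lists whose main median was not close to 0. Left out are, for example, integrins and laminins (-0.037, and 0.66 over genes seen on both arrays). The medians that changed sign were, under median scaling, chromatin and DNA methylation (-0.0085). Under quantile normalization they were the same list (-0.035), ribosomal protein (-0.027) and housekeeping (-0.027). Under cyclic loess they were FGF, PDGF, VEGF and HGF (-0.018), BMP and TGF-beta (-0.058), chromatin and DNA methylation (-0.14), microglia and leukocyte (-0.019), ribosomal protein (-0.054) and housekeeping (-0.051). Under spike-in scaling they were neuron and neuroblast (-0.26), FGF, PDGF, VEGF and HGF (-0.41), STAT3 (-0.20), BMP and TGF-beta (-0.47), CDK inhibitors and p53 targets (-0.33), integrated stress response and serine synthesis (-0.023), proteases and inhibitors (-0.34), axon guidance (-0.28), mesenchymal transition factors (-0.29), S100 and annexins (-0.23), chromatin and DNA methylation (-0.49), endothelial and pericyte (-0.047), microglia and leukocyte (-0.39), fibroblast and meningeal (-0.27), ribosomal protein (-0.33) and housekeeping (-0.36). With no filter on dim probes, the imprinted (0.049), prostaglandin (0.024) and sex-linked (0.13) medians rose above 0. Over genes seen on both arrays, the prostaglandin median was 0.16, microglia and leukocyte -0.051 and fibroblast and meningeal -0.13, and the mean over probes gave axon guidance -0.025. Median and spike-in scaling shift every gene by 1 amount (-0.12 and -0.61), whereas quantile and cyclic loess shift genes by their level, with the all-gene median moving by -0.13 and -0.23. Under quantile the ribosomal protein median moved further, from 0.28 to -0.027. Which scaling suits these cultures was not tested. Low signal limits genes seen on 1 array, whose median error was 0.84 against 0.20 for genes seen on both.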

Other observations

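The difference between NSCL61 and NSC-Ceacam1L was not even along the genome. Over the 744 evaluated genes with a probe on chromosome 10 the median difference was 0.71, and 82.3% of genes lay above 0. On the other autosomes and X that share ran from 35.3% (chromosome 18) to 74.5% (chromosome 8). On chromosome 10, 31.6% were called higher against 11.4% of all genes, and 8.33% lower against 13.8%. In bins of 20 Mb the median ran from 0.53 to 0.81 in all 7 bins of the chromosome. The median of the same genes was 0.54 for NSCL61 against NSC, -0.14 for NSC-Ceacam1L against NSC and -0.057 for NSCL61-Ceacam1sh against NSC; these values share arrays. Chromosome 8 followed with 0.45 (0.40 to 0.56 over its 7 bins), chromosome 17 with 0.38 and chromosome 19 with 0.32. Chromosomes 18 (-0.23), X (-0.18), 14 (-0.16) and 6 (-0.11) had medians below 0. Spike-in scaling shifts every difference by -0.61, so which chromosomes lie above or below 0 depends on the scaling. Col6a1 and Col6a2 lie on chromosome 10. These medians were looked at after the data were seen, and their cause was not tested.

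Probes with no gene name leaned to NSCL61: of 10220 seen among 24203, 17.4% were higher and 9.20% lower, with a median difference of 0.35.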
